A study of Mus musculus with 9 samples.

Results

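Solute carriers are the membrane proteins, named Slc with a family number and a member number, that move sugars, amino acids, ions, metals, nucleotides and lipids across cell and organelle membranes. Every probe set annotated with a single gene symbol that begins with Slc and a digit was taken, 1 probe set was kept for each gene (the one with the highest mean over the 9 arrays), and genes below the median of the array on more than 7 of the 9 arrays were dropped. This gave 103 genes of 151 Slc genes represented, out of 6109 genes with a tested probe set in the whole table. The study compared gene expression in cornea, lens and tendon of the mouse on Affymetrix arrays of 12488 probe sets. It holds 3 arrays of adult cornea and 2 arrays each of cornea at postnatal day 10 (P10), adult lens and adult tendon, and the adult mice were 7 weeks old. The tendon was the flexor digitorum longus, and strain and genotype are not given in the sources used here. The corneas, labelled as stroma, were cut away from the limbus and had epithelium scraped off, which lowered its share without removing it; the lens and tendon samples pooled tissue; each array stands for its own RNA preparation. Since the corneal arrays had also been the baselines of earlier work on cultured corneal cells, array set and tissue cannot be told apart wherever cornea is set against the other tissues.

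Most carriers use a gradient to move a solute: sodium-coupled carriers draw on the gradient that the sodium pump sets up, exchangers trade one ion for another, and facilitative carriers let a solute run down its own gradient. The cornea and the lens have no blood vessels and are fed by the aqueous humour, and the cornea also by the tear film. Their cells take up nutrients from these fluids through such carriers. Corneal endothelium and epithelium also move ions to hold the stroma at the water content that keeps it clear, and lens fibres, which lose their organelles, take up glucose, amino acids and antioxidant precursors from the fluid around them. Skeletal muscle and fat, which border tendon, take up glucose through a carrier that insulin brings to the surface.

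Of the 103 genes, 102 are counted here as carriers by their family name, and 1, Slc9a3r1, is named after the exchanger it binds and encodes a scaffold protein. Some of the 102 are described below as an enzyme, a receptor or a chain of a carrier. By the solute moved, 21 of 31 amino acid carriers on the array were kept, with 10 of 13 sugar and monocarboxylate carriers, 9 of 17 ion exchangers and cotransporters, 14 of 16 metal carriers, 16 of 20 mitochondrial carriers and 32 of 51 carriers of nucleosides, phosphate, lipids and other organic solutes. The kept genes reached the median on all 9 arrays in 53 cases and on exactly 2 arrays in 9 cases. Of those 9, Slc10a6, Slc27a2, Slc4a1 and Slc7a1 passed through both lens arrays, Slc1a5 through both tendon arrays, and Slc27a4 and Slc5a1 through adult cornea 1 and 2. These genes could only enter by being high in those groups, so counts over the kept genes are descriptions. In all, 8 members reached the median in 1 group only and 4 (Slc35a1, Slc35c2, Slc39a6 and Slc39a8) in cornea of both ages only. Values and folds of those described below are given with no test. Just outside the limit lay 14 genes that reached the median on 1 array, among them Slc7a8 with a highest value of 107.3 and Slc20a1, a phosphate carrier, with 97.49.

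Values are the deposited expression index in arbitrary units. Differences were tested with limma on log2(value + 16) over all 8154 tested probe sets, with Benjamini-Hochberg adjustment within each comparison. A gene is termed called where the adjusted p lay under 0.05. Folds are on the log2(value + 16) scale, which understates the change of genes with low values. A call named below was also made in each of the 9 fits that left out 1 array, with exceptions. There the array whose omission lost it is given with the adjusted p or the log2 difference. Leaving out an array of a group outside the comparison does not change the log2 difference, only the estimate of the spread. Such fits test a call less than those that leave out an array of the groups compared. The p-values measure the spread between these few RNA preparations.

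Many carriers differed between lens and the other tissues, and the share was near that of all tested probe sets. Between adult cornea and lens, 25 members were higher in cornea and 22 in lens, or 45.6% of members beside 51.2% of all tested probe sets (27.2% higher in cornea, 24% in lens). Between P10 cornea and lens, 33 were higher in cornea and 17 in lens, 48.5% beside 51% (31.6% and 19.4%). Between lens and tendon, 23 were higher in lens and 27 in tendon, 48.5% beside 49% (22.6% and 26.4%). The median log2 difference over members was 0.15 for adult cornea minus lens, where that of all tested probe sets was 0.08, and -0.15 for lens minus tendon, where it was -0.07. For P10 cornea minus lens it was 0.31 over members and 0.25 over all tested probe sets, and with median centring the split of calls was 21 higher and 21 lower, with quantile normalization 24 and 20. In that comparison the count fell from 50 to 32 without P10 cornea 1 and to 33 without lens 2.

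Tendon and cornea differed in fewer carriers in this fit, and the shares were near those of all tested probe sets. The order depended on the fit. With only the groups compared, 2333 of all tested probe sets were higher in P10 cornea than in tendon and 1499 lower. The fit on all arrays had 1277 and 897. For adult cornea against lens, the fit on only the groups compared had 1701 higher and 1614 lower. Between adult cornea and tendon, 23 members were higher in cornea and 17 in tendon, 38.8% of members beside 35% of all tested probe sets (16.1% higher in cornea, 18.9% in tendon), with a median log2 difference of 0.05 over members and 0.01 over all. Between P10 cornea and tendon, 20 were higher in cornea and 7 in tendon, 26.2% beside 26.7% (15.7% and 11%), with medians of 0.12 and 0.13. With median centring the latter split was 17 and 10, and with quantile normalization 18 and 10. These counts leaned on each array: for adult cornea and tendon the count of 40 became 21 without tendon 1 and 22 without tendon 2. For P10 cornea and tendon the count of 27 became 12 without tendon 1, 15 without tendon 2, 14 without P10 cornea 1 and 17 without P10 cornea 2. Over the 6 comparisons 217 calls were made on 74 genes, 127 of the calls were made in all 9 fits that left out 1 array, and 29 genes were called in none. No counts of this kind were made over all tested probe sets, so they describe the members only.

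**Figure D1:**
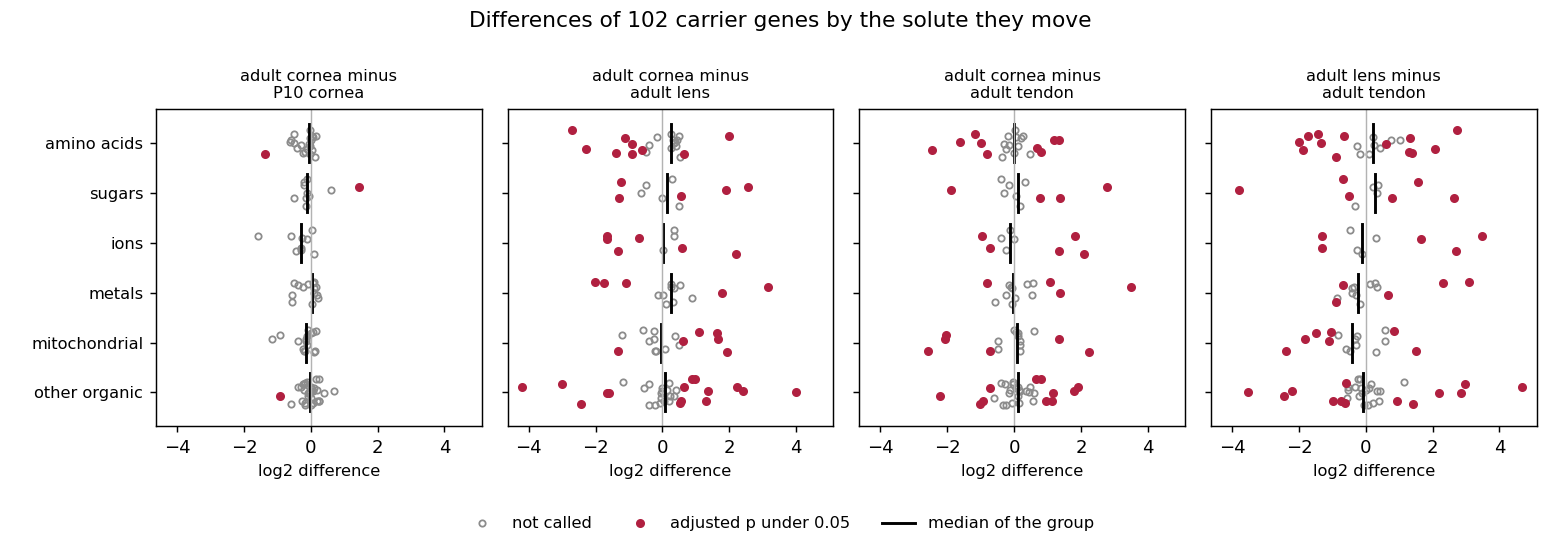
Log2 difference of each of the 102 carrier genes (x axis, log2 of value + 16) in 4 comparisons, with the genes grouped on the y axis by the solute they move; filled points have an adjusted p under 0.05 and bars mark group medians. Adult and P10 cornea differ in few carriers, while each other panel has called genes on both sides of 0 in most groups.

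Of all members, 33 of the 103 genes had their highest group mean in lens, 27 in tendon, 24 in adult cornea and 19 in P10 cornea. Lens was also the tissue with the lowest mean most often, in 47 genes, followed by tendon in 33, adult cornea in 16 and P10 cornea in 7. The same counts over all tested probe sets were not made, so these are not read as a trait of carriers. The median index was 76.0 and 67.6 on the lens arrays and 88.0 and 86.1 on the P10 cornea arrays. It was 77.7, 68.0 and 78.6 on the adult cornea arrays and 74.0 and 79.6 on the tendon arrays. Across the 103 genes the log2 values of the tendon arrays correlated at 0.99, those of the P10 cornea arrays at 0.96, those of the lens arrays at 0.95 and those of the adult cornea arrays at 0.83 to 0.90. The points are genes, and all genes on an array share its RNA preparation. Adult cornea 1 had a 3′ to 5′ signal ratio of 2.25 for Gapdh and 4.69 for actin, where the other arrays lay at 0.83 to 1.04 and 1.07 to 2.07. Its part in the differences was not tested beyond leaving that array out.

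The tissue labels were checked against marker genes. All 7 lens markers on the array exceeded the median on both lens arrays, with a summed index of 33860 to 35260 there, 4715 to 8573 on the corneal arrays and 531 to 578 in tendon. Epithelial markers summed to 21660 to 24410 on the corneal arrays of either age, so these hold epithelium after scraping, and to at most 3205 elsewhere. The 4 tendon markers summed to 11220 to 12560 in tendon and at most 834 elsewhere. Photoreceptor markers, all 6 above the median on both lens arrays, summed to 1641 to 2597 in lens and 508 to 2002 in adult cornea. They summed to 1094 to 1712 in P10 cornea and 191 to 198 in tendon. Gnat1 (905 and 582 in lens, at most 191 elsewhere) and Prph2 (110 and 73.8, at most 68.1) were highest in lens. Sag (1015 and 533 in lens) and Pde6b (311 and 254) were highest on adult cornea 3, at 1204 and 333. Rcvrn read 132 and 68.0 in lens and 111 on adult cornea 3. Pde6a was lower in lens (125 and 131) than in tendon (175 and 162). The part of photoreceptor cells in the genes high in lens was not tested. On the tendon arrays all 16 skeletal muscle markers also exceeded the median, with a sum of 55660 to 65710 beside 587 to 1291 on all other arrays, and adipocyte markers, 5 of 7 above the median, summed to 9575 to 10130 beside at most 429. In tissue of mixed cells, a lower value can stand for fewer cells of a type or less RNA per cell, and these cannot be told apart.

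**Figure D2:**
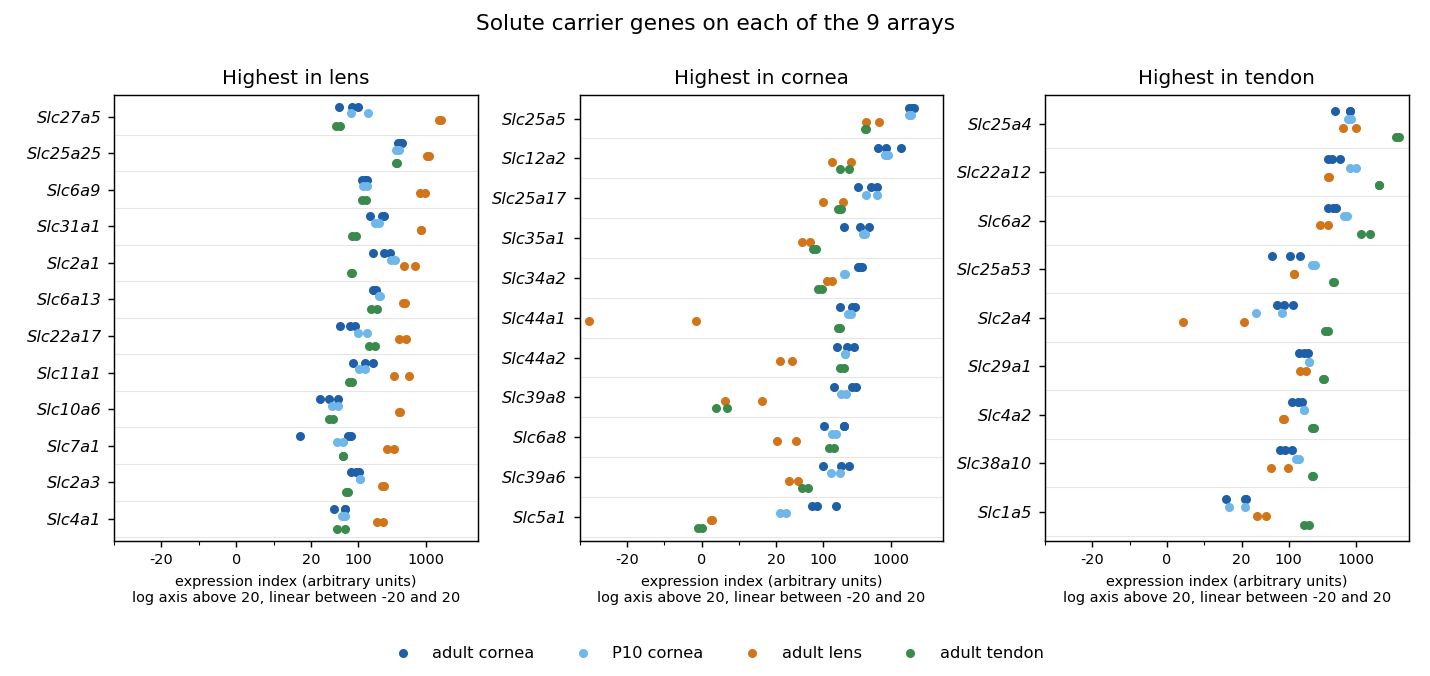
Expression index (x axis, arbitrary units, linear around 0 and log further out) of 32 solute carrier genes on each of the 9 arrays, 1 point an array, coloured by tissue. In the left panel both lens points lie above all others for every gene, and in the right panel both tendon points do. Each gene is drawn with the probe set used here. Further probe sets of some genes, among them Slc6a8 (middle panel) and Slc31a1 (left panel), have another tissue order.

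The sugar carriers divided by tissue: Slc2a1 and Slc2a3 were highest in lens, Slc2a4 in tendon and Slc5a1 in adult cornea. Slc2a1, the facilitative glucose carrier of most cells and of blood-tissue barriers, read 243, 301 and 167 on the adult cornea arrays, 306 and 355 on the P10 cornea arrays, 709 and 486 on the lens arrays and 80.3 and 79.6 on the tendon arrays. Both lens arrays lay above all corneal arrays, and both tendon arrays below. Lens exceeded adult cornea 2.45-fold (log2 difference -1.29 ± 0.26 SE, limma adjusted p = 0.00220) and tendon 6.29-fold (adjusted p = 3.44e-05), and adult cornea exceeded tendon 2.57-fold (adjusted p = 0.00242). The lens also exceeded P10 cornea, 1.75-fold (limma adjusted p = 0.0379), but that call was lost without any 1 of 6 arrays: adjusted p was 0.210 without lens 1, 0.178 without P10 cornea 1, 0.0843 without P10 cornea 2, and 0.0520 to 0.0614 without adult cornea 1, tendon 1 or tendon 2.

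The window of 250 bases before the start of Slc2a1 is shown for its GC boxes, as that of the glucose carrier just described (RefSeq, GRCm38.p6, chr4:119108495-119108744, plus strand, 5′ to 3′; capitals mark, on either strand, the CCAAT box with the letters CCAAT, the GC box with the letters GGGCGG and the TATA box with the letters TATAAA, which do not overlap here).
Slc2a1: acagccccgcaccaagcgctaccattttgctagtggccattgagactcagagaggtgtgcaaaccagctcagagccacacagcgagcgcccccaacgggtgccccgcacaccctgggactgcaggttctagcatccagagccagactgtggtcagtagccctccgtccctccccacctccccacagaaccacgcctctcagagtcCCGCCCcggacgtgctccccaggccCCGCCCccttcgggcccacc
It holds 2 GC boxes, the nearer starting 20 bases before the gene start, and its GC content is 66.4%. Of 32851 such windows of all genes, 32.7% hold GGGCGG on either strand, 33.8% hold CCAAT and 12.4% hold TATAAA. The 120 windows found for 81 of the 103 members hold them in 57.5%, 30% and 6.67%. Members were kept for their signal on these arrays, the windows of all genes were not, and some genes have several windows. Shares over genes with a tested probe set were not computed, so no trait of carriers is read from these. A match is a run of letters, not a shown site of binding.

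Slc2a3, a glucose carrier of high affinity best known from neurons, read 79.4, 92.6 and 102 on the adult cornea arrays, 106 and 105 on the P10 cornea arrays, 222 and 245 on the lens arrays and 70.3 and 67.0 on the tendon arrays. The lens arrays stood above all others, 2.33-fold over adult cornea (log2 -1.22 ± 0.17, limma adjusted p = 2.47e-04) and 2.95-fold over tendon (adjusted p = 8.44e-05). Slc2a4, the carrier that insulin brings to the surface of muscle and fat cells, read 84.0, 67.9 and 115 on the adult cornea arrays, 32.6 and 80.1 on the P10 cornea arrays, 21.7 and 4.17 on the lens arrays and 349 and 383 on the tendon arrays. Tendon was 3.71-fold over adult cornea (log2 -1.89 ± 0.34, limma adjusted p = 0.00184). Slc2a4 reached the median only on adult cornea and tendon arrays, so folds against lens are given with no test. Tendon was 13.9-fold over lens, and lens was 3.74-fold below adult cornea. The tendon arrays are those with the muscle and adipocyte sums given above, and the part of those cells in this difference was not tested.

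Slc5a1, the sodium-coupled glucose carrier known from gut and kidney, read 153, 81.1 and 66.6 on the adult cornea arrays, 22.2 and 28.1 on the P10 cornea arrays, 2.67 and 2.59 on the lens arrays and 0.00195 and -0.867 on the tendon arrays. All corneal arrays lay above the lens and tendon arrays, which were near or below 0. Adult cornea exceeded lens 5.94-fold (log2 2.57 ± 0.30). No fold is given against tendon, where 1 array was below 0. The remaining sugar carriers on the list for named genes gave smaller differences. Slc2a5, a fructose carrier, and Slc2a8, an intracellular hexose carrier, were called in no comparison, with values of 133 to 391 and 113 to 214 over the 9 arrays. Slc5a11, a carrier of inositol, read 116 to 128 on the lens arrays and 169.6 to 197 elsewhere, and adult cornea exceeded lens by log2 0.56 (limma adjusted p = 0.0177, 0.0788 without lens 2 and 0.0861 with only the groups compared).

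**Figure D3:**
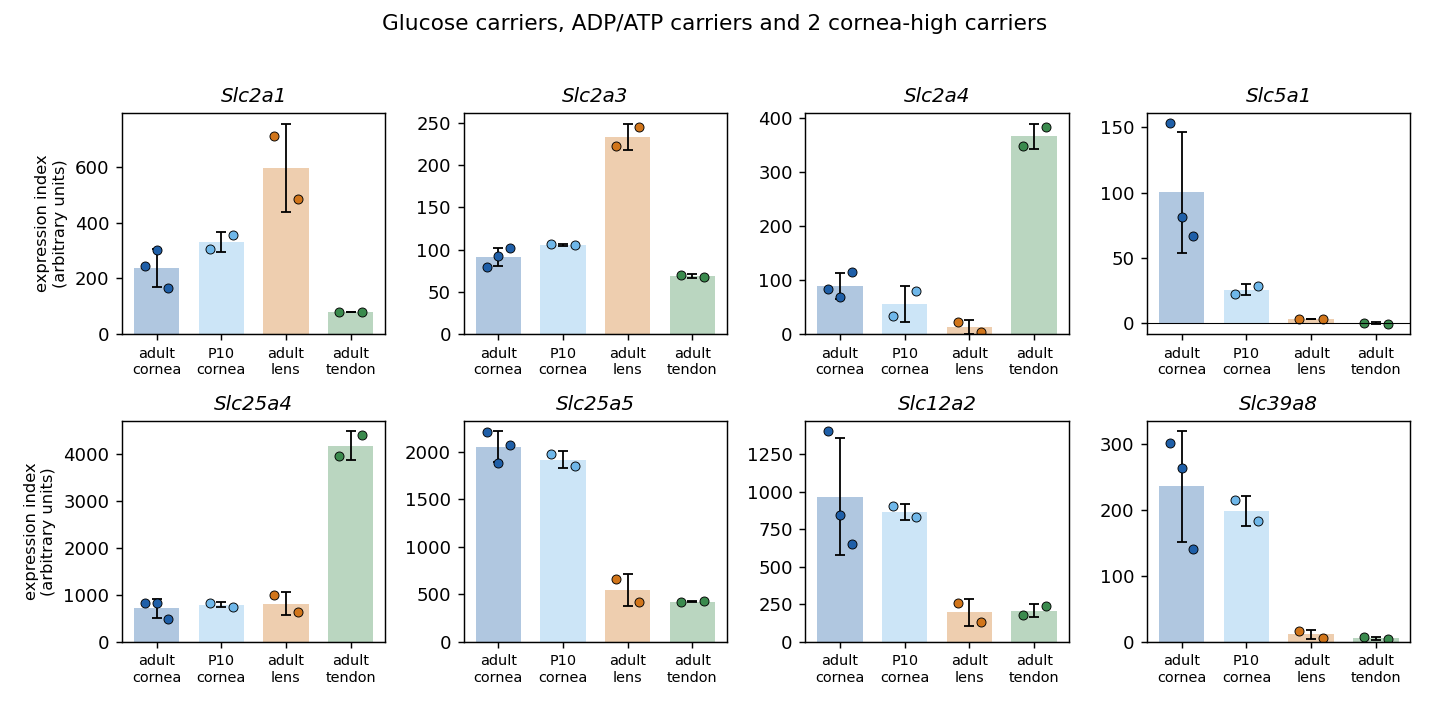
Expression index (y axis, arbitrary units) of 8 carriers by tissue; bars are group means, error bars 1 SD, and points single arrays (3 of adult cornea, 2 of each other tissue). Slc2a1 and Slc2a3 are highest in lens, Slc2a4 and Slc25a4 in tendon, and Slc5a1, Slc25a5, Slc12a2 and Slc39a8 in cornea.

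Amino acid carriers high in lens included those for glycine and for cationic amino acids. Slc6a9, the sodium- and chloride-coupled glycine carrier, read 113, 125 and 135 in adult cornea, 118 and 136 in P10 cornea, 972 and 827 in lens and 112 and 129.9 in tendon. Both lens arrays lay several-fold above the other 7, which were alike: the lens was 6.52-fold over adult cornea (log2 -2.70 ± 0.18, limma adjusted p = 1.90e-06), 6.38-fold over P10 cornea (adjusted p = 4.72e-06) and 6.67-fold over tendon (adjusted p = 2.64e-06). Glycine is 1 of the amino acids of glutathione, the main antioxidant of the lens. Slc7a1, which carries arginine and lysine, read 70.8, 17.1 and 78.0 in adult cornea, 59.9 and 47.8 in P10 cornea, 265 and 344 in lens and 59.8 and 59.6 in tendon. Here too the lens arrays stood alone, 4.92-fold over adult cornea and 4.2-fold over tendon. Slc6a13, a GABA and taurine carrier named after its values were seen, read 465 and 500.3 on the lens arrays and 158 to 211 elsewhere.

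Slc1a5, a carrier of glutamine and other neutral amino acids, was highest in tendon, and its relative Slc1a4 was lowest in adult cornea. Slc1a5 read 22.4, 23.3 and 15.8 in adult cornea, 22.7 and 16.5 in P10 cornea, 33.8 and 45.2 in lens and 201 and 169.6 in tendon. Tendon was 5.52-fold over adult cornea (log2 -2.46 ± 0.21), 5.66-fold over P10 cornea and 3.64-fold over lens. Slc6a2, the noradrenaline carrier of sympathetic nerves, read 388, 449 and 497 in adult cornea, 652 and 726 in P10 cornea, 384 and 294 in lens and 1599 and 1196 in tendon. Both tendon arrays exceeded all others, 3.05-fold over adult cornea (limma adjusted p = 1.87e-04) and 3.97-fold over lens (adjusted p = 5.22e-05). A further probe set of Slc6a2 differed less, reading 817 and 605 in tendon, 615 and 639.9 in lens and 400 to 856 in adult cornea, with no call in any comparison. Slc38a10, a neutral amino acid carrier, read 88.2, 110.2 and 74.6 in adult cornea, 141 and 129.5 in P10 cornea, 98.6 and 53.8 in lens and 224 and 225 in tendon. Tendon was 2.27-fold over adult cornea (limma adjusted p = 0.00341) and 2.69-fold over lens (adjusted p = 0.00129). For Slc38a10, another probe set was higher in tendon than in lens (log2 -1.03 for lens minus tendon, limma adjusted p = 0.00460), but adult cornea and tendon were not called apart (44.3 to 72.9 and 79.6 to 79.99, adjusted p = 0.141).

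Slc3a2 and Slc7a5, the heavy and light chain of the carrier of large neutral amino acids, and Slc38a2, which imports small neutral amino acids, were lowest in tendon. Slc3a2 read 474, 552 and 334 in adult cornea, 500.0 and 515 in P10 cornea, 791 and 502 in lens and 219.8 and 278 in tendon, and lens exceeded tendon 2.45-fold (log2 1.30 ± 0.29, limma adjusted p = 0.00392). Slc7a5 read 244, 239 and 166 in adult cornea, 330.4 and 250.5 in P10 cornea, 208 and 151 in lens and 118 and 137 in tendon, and Slc38a2 read 515, 394 and 268 in adult cornea, 701 and 478 in P10 cornea, 377 and 199 in lens and 141 and 174 in tendon. Neither overlapped between cornea and tendon, and P10 cornea exceeded tendon 2.12-fold for Slc7a5 (limma adjusted p = 0.0118) and 3.45-fold for Slc38a2 (adjusted p = 0.00506). These 2 calls depended on single arrays: for Slc7a5 the adjusted p was 0.112 without P10 cornea 1, 0.1 without tendon 1 and 0.0508 without tendon 2, and for Slc38a2 it was 0.0527 without P10 cornea 1 and 0.0510 without tendon 1.

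Taurine and creatine carriers gave values that need care. Slc6a6, the taurine carrier, read 609, 1316 and 1128 in adult cornea, 1024 and 922 in P10 cornea, 1253 and 478 in lens and 382 and 368 in tendon. The lens arrays differed from each other as widely as the corneal arrays did, while both tendon arrays lay below all others. Adult cornea exceeded tendon 2.52-fold (limma adjusted p = 0.0249), a call lost without adult cornea 2 (0.0705), adult cornea 3 (0.0525), tendon 1 (0.114) or tendon 2 (0.123), and with the mean over probe sets (0.106). For Slc6a6, another probe set made no call there (log2 0.74, limma adjusted p = 0.299), with adult cornea 1 at 383 below the tendon arrays (411 and 454). Slc6a8, the creatine carrier, read 203, 201 and 101 in adult cornea, 155 and 132 in P10 cornea, 39.4 and 20.2 in lens and 121 and 145 in tendon. On this probe set lens was lowest, by 3.97-fold against adult cornea (limma adjusted p = 3.67e-04). A further probe set of Slc6a8 put lens highest, with 235 and 297 in lens, 105 to 111 in adult cornea and -94.97 and -9.43 in tendon, so no direction is drawn for this gene.

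Among ion carriers, Slc12a2 was highest in cornea and Slc4a1 in lens. Slc12a2, the sodium-potassium-chloride cotransporter that loads epithelial cells with chloride, read 1404, 844 and 654 in adult cornea, 904 and 829.6 in P10 cornea, 258 and 134 in lens and 176 and 237 in tendon. Every corneal array lay above every lens and tendon array: adult cornea was 4.61-fold over lens (log2 2.21 ± 0.34, limma adjusted p = 4.20e-04) and 4.24-fold over tendon (adjusted p = 9.24e-04), and P10 cornea was 4.35-fold over lens (adjusted p = 0.00111). Slc4a1, the chloride-bicarbonate exchanger of the red cell membrane, read 62.7, 63.3 and 44.2 in adult cornea, 58.5 and 64.1 in P10 cornea, 188 and 237 in lens and 64.6 and 48.5 in tendon. Lens was 3.15-fold over adult cornea and 3.16-fold over tendon. The 5 red cell markers on the array summed to 919 to 930.0 in lens, the lowest of all tissues, against 1026 to 2318 elsewhere, with Hba-a1 at 204 and 215 in lens and 467 to 1713 elsewhere and Alas2 at 213 and 198 in lens and 41.1 to 86.1 elsewhere.

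Slc4a2, the widely expressed chloride-bicarbonate exchanger, read 136, 159 and 112 in adult cornea, 168 and 166 in P10 cornea, 82.4 and 84.1 in lens and 225 and 234 in tendon. Tendon was 2.47-fold over lens (limma adjusted p = 4.63e-04) and P10 cornea was 1.84-fold over lens (adjusted p = 0.00527). Slc4a5, a sodium-bicarbonate cotransporter, read 34.6, 46.4 and 42.5 in adult cornea, 99.2 and 235 in P10 cornea, 278 and 94.5 in lens and -4.93 and -8.18 in tendon. Its lens and P10 cornea arrays spread widely and its tendon arrays were both below 0. Both lens arrays lay above the adult cornea arrays (3.17-fold, and log2 -0.96 for adult cornea minus lens without lens 1). No test is given for Slc4a5, which reached the median only on P10 cornea and lens arrays. Slc26a2, the sulfate carrier needed for sulfation of proteoglycans, read 140.0, 78.3 and 198 in adult cornea, 134 and 246 in P10 cornea, 328 and 386 in lens and 40.5 and 42.8 in tendon. It was highest in lens and lowest in tendon, where the 2 groups differed 6.45-fold (limma adjusted p = 1.98e-04). Lens exceeded adult cornea 2.53-fold (adjusted p = 0.00796 with limma, 0.0703 without lens 2), and adult cornea exceeded tendon 2.54-fold (adjusted p = 0.0114, 0.0797 without tendon 1 and 0.0659 without tendon 2). Slc12a4, a potassium-chloride cotransporter, read 197 and 201 in lens and 90.9 to 169 elsewhere.

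Among metal carriers, the zinc importers Slc39a8 and Slc39a6 were high in cornea, and the copper importer Slc31a1 and the metal carrier Slc11a1 in lens. Slc39a8, which also carries manganese, read 301, 264 and 141 in adult cornea, 214 and 182 in P10 cornea, 16.1 and 6.33 in lens and 6.87 and 3.98 in tendon. The lens and tendon arrays lay near 0 and all corneal arrays above 100, so that adult cornea was 8.99-fold over lens (log2 3.17 ± 0.30) and 11.2-fold over tendon. P10 cornea was 7.98-fold over lens and 9.99-fold over tendon. Slc39a6 read 241, 180.4 and 98.8 in adult cornea, 176 and 131 in P10 cornea, 41.7 and 30.3 in lens and 48.0 and 57.9 in tendon. Its corneal arrays also lay above all lens and tendon arrays, by 3.48-fold between adult cornea and lens and 2.61-fold between adult cornea and tendon.

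Slc31a1, the importer of copper at the cell surface, read 239, 227 and 148 in adult cornea, 175 and 201 in P10 cornea, 851 and 866 in lens and 81.8 and 93.0 in tendon. Lens was 4.04-fold over adult cornea (log2 -2.01 ± 0.22, limma adjusted p = 4.60e-05) and 8.47-fold over tendon (adjusted p = 4.39e-06). A further probe set of Slc31a1 showed no such rise: it read 153 and 104 in lens, 94.8 to 131 in adult cornea and 146 and 168 in P10 cornea, and lens and adult cornea differed by log2 -0.09 (limma adjusted p = 0.754). Slc11a1, the metal carrier of the macrophage phagosome, read 83.0, 128 and 164 in adult cornea, 103 and 127 in P10 cornea, 575 and 340.3 in lens and 73.4 and 80.3 in tendon. Both lens arrays exceeded all others, 3.35-fold over adult cornea (limma adjusted p = 6.77e-04) and 4.94-fold over tendon (adjusted p = 1.89e-04). The 8 macrophage markers summed to 628 to 713 in lens, below every other array (944 to 4237). Single markers varied: Lyz2 was below 0 on both lens arrays, Cd68 was highest there (113 and 128, elsewhere 64.1 to 111) and Ptprc was highest on lens 1 (139). The related iron carrier Slc11a2 was called in no comparison (145 to 236 over the 9 arrays), while a further probe set of it read 153 and 220 in lens and 61.4 to 93.5 elsewhere.

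Of the 8 other zinc carriers kept, 4 were called in no comparison: Slc39a1, a zinc importer of most cells (188 to 254 over the 9 arrays), Slc30a3, the zinc carrier of synaptic vesicles (187 to 334), Slc30a1, the zinc exporter of the cell surface (44.9 to 111), and Slc30a4 (48.8 to 116). For Slc39a1, another probe set was lower in lens, at 148 and 103 against 179.9 to 255 elsewhere (adult cornea over lens by log2 0.83, limma adjusted p = 0.00750). Slc39a3, Slc30a5 and Slc39a7 were picked after their values were seen. Slc39a3 read 90.4, 94.9 and 128 in adult cornea, 136 and 174 in P10 cornea, 256 and 222 in lens and 203 and 184 in tendon, with lens above adult cornea (limma adjusted p = 0.00150). Slc30a5 and Slc39a7 were lower in lens than in P10 cornea and tendon, each call being lost without several single arrays. Log2 of P10 cornea minus lens for Slc30a5 was 0.82 without P10 cornea 1 and 0.78 without lens 2. Its lens minus tendon was -0.54 without lens 2, -0.80 without tendon 1, -0.57 without tendon 2 and -0.68 without either P10 cornea array. For Slc39a7, P10 cornea minus lens was 0.89 and 0.86 without P10 cornea 1 and 2, and 0.49 without lens 2. Its lens minus tendon was -0.51 without lens 2 and -0.68 without tendon 2. Quantile normalization, median centring or only the groups compared also ended some of these calls. Slc39a4, the zinc importer of the gut, read 310 and 324 in lens and 181 and 209 in tendon (limma adjusted p = 0.0461), a call lost in 7 of the 9 fits that left out 1 array, with adjusted p of 0.0564 to 0.216, and kept only without adult cornea 2 or 3. It also ended with quantile normalization (0.0635), no filter on low values (0.0513) and a filter of 5 arrays (0.0523).

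Among mitochondrial carriers, a pair of paralogs differed in tissue order. Slc25a4 and Slc25a5 both exchange ADP for ATP across the inner mitochondrial membrane; the former is the form of heart and skeletal muscle and the latter that of dividing and many other cells. Slc25a4 was highest in tendon and Slc25a5 highest in cornea. Slc25a4 read 817, 824 and 484 in adult cornea, 826 and 746 in P10 cornea, 984 and 636 in lens and 3955 and 4385 in tendon. Tendon was 5.93-fold over adult cornea (log2 -2.57 ± 0.26, limma adjusted p = 3.77e-05), 5.22-fold over P10 cornea (adjusted p = 2.00e-04) and 5.18-fold over lens (adjusted p = 7.94e-05), with the muscle markers as given above and their part not tested. Slc25a5 read 2208, 1885 and 2077 in adult cornea, 1981 and 1855 in P10 cornea, 665 and 423 in lens and 420.5 and 425 in tendon. All 5 corneal arrays lay far above the lens and tendon arrays: adult cornea was 3.78-fold over lens (log2 1.92 ± 0.20, limma adjusted p = 3.08e-05) and 4.72-fold over tendon (adjusted p = 1.51e-05). A further probe set of Slc25a5 gave the same order of cornea over both (788 to 1457 on the corneal arrays, 288 and 473 in lens, 417 and 438 in tendon), and the other had cornea over lens but its highest values in tendon (181 and 176).

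The windows before both starts are shown side by side because the paralogs differ in their tissue order (RefSeq, GRCm38.p6, 250 bases, 5′ to 3′ on the gene's strand; Slc25a4 at chr8:46211063-46211312, minus strand, Slc25a5 at chrX:36795347-36795596, plus strand; capitals mark the same 3 motifs on either strand).
Slc25a4: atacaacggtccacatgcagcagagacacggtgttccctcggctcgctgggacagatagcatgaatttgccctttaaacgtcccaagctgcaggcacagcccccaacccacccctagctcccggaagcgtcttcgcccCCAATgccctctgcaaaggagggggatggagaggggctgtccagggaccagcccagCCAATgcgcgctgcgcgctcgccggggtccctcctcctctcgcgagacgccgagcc
Slc25a5: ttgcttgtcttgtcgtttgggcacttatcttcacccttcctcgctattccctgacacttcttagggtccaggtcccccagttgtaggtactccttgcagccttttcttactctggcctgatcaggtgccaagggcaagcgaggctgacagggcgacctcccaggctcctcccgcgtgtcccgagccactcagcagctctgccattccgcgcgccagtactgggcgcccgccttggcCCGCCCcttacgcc
The Slc25a4 window holds 2 CCAAT runs, the nearer starting 56 bases before the gene start, and no run of the other motifs, at a GC content of 64.8%. The Slc25a5 window holds 1 GC box, starting 14 bases before the gene start and lying on the other strand, with neither CCAAT nor TATAAA, at 61.6%.

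Slc25a25, the calcium-sensitive carrier of ATP-magnesium and phosphate, read 387, 435 and 445 in adult cornea, 399.7 and 369 in P10 cornea, 1053 and 1111 in lens and 378 and 368 in tendon. Lens stood alone, 2.51-fold over adult cornea (limma adjusted p = 1.07e-04) and 2.82-fold over tendon (adjusted p = 8.18e-05). Slc25a53, a carrier of unknown solute, read 106, 56.7 and 148 in adult cornea, 248 and 223 in P10 cornea, 119 and 118 in lens and 449.9 and 463 in tendon. Tendon was 4.17-fold over adult cornea (adjusted p = 3.85e-04 with limma) and 3.52-fold over lens (adjusted p = 0.00105). Slc25a11, the oxoglutarate-malate carrier, read 489, 386 and 468 in adult cornea, 468 and 516 in P10 cornea, 308 and 269 in lens and 660.4 and 610.2 in tendon. Tendon was 2.14-fold over lens (limma adjusted p = 0.00121). Slc25a3, the phosphate carrier, read 159, 16.5 and 15.5 in adult cornea, 103 and 78.4 in P10 cornea, 129.5 and 102 in lens and 202 and 230.3 in tendon. Adult cornea 1 stood apart from the other adult cornea arrays, and it is the array with the high 3′ to 5′ ratios. The call of tendon over adult cornea for Slc25a3 (limma adjusted p = 0.0254) was lost without adult cornea 2 (0.0723), adult cornea 3 (0.0594), tendon 1 (0.105) or tendon 2 (0.132), and with only the groups compared (0.0692). Slc25a17, a peroxisomal member named after its values were seen, read 324 to 628 on the corneal arrays, 193 and 97.3 in lens and 166 and 184 in tendon.

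Of the 5 kept Slc27 and 3 kept Slc10 genes, Slc27a5, Slc27a2 and Slc10a6 had their highest mean in lens, and Slc27a3, Slc27a4, Slc10a1 and Slc10a3 their lowest. Slc27a5, a bile acid and very long chain fatty acid CoA ligase of liver, read 52.7, 101 and 82.1 in adult cornea, 77.5 and 141 in P10 cornea, 1725 and 1610.3 in lens and 53.0 and 47.2 in tendon. Both lens arrays exceeded every other by more than an order of magnitude, 18.2-fold over adult cornea (log2 -4.19 ± 0.28, limma adjusted p = 1.61e-06), 13.9-fold over P10 cornea (adjusted p = 6.90e-06) and 25.5-fold over tendon (adjusted p = 1.10e-06). Slc10a6, a carrier of sulfated steroids, read 37.0, 27.4 and 50.2 in adult cornea, 41.3 and 50.2 in P10 cornea, 411 and 415 in lens and 41.8 and 36.3 in tendon. Lens was 8.02-fold over adult cornea and 7.79-fold over tendon. Slc27a2, a fatty acid carrier and CoA ligase of liver and kidney, read 36.9, 31.3 and 35.7 in adult cornea, 21.4 and 24.3 in P10 cornea, 110.1 and 189.7 in lens and 10.8 and 2.89 in tendon. Lens was 3.18-fold over adult cornea and 7.16-fold over tendon. Slc22a17, the receptor of lipocalin 2, read 54.3, 91.0 and 75.5 in adult cornea, 101 and 133 in P10 cornea, 515 and 411 in lens and 146 and 178 in tendon, again with both lens arrays highest, 5.39-fold over adult cornea (limma adjusted p = 1.69e-05). Slc27a1, the fatty acid carrier of muscle and fat, was called in no comparison and read 455 to 1122 over the 9 arrays.

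Slc44a1 and Slc44a2, of the choline carriers, were low in lens. Slc44a1, a choline carrier of the cell surface and mitochondria, read 267, 293 and 174 in adult cornea, 257 and 232 in P10 cornea, -1.49 and -73.8 in lens and 164 and 174 in tendon. Both lens arrays were below 0 while all other arrays lay above 160, so no fold is given. Both lens values were set to 0 for the fit, which removed the spread between them, so no p-value is given either. Slc44a2, its paralog, read 281, 226 and 159.5 in adult cornea, 209 and 206 in P10 cornea, 34.4 and 22.6 in lens and 177 and 200 in tendon, and lens was 5.27-fold below adult cornea (limma adjusted p = 2.35e-05) and 4.62-fold below tendon (adjusted p = 7.08e-05). Slc9a3r1, the scaffold that ties ion carriers and ezrin to the apical membrane, read 287, 272 and 341 in adult cornea, 184 and 218 in P10 cornea, 5.48 and -39.4 in lens and 112 and 121 in tendon, with 1 lens array near 0 and the other below it. As the latter was set to 0 for the fit, which narrowed the spread between the lens arrays, no p-value is given against lens. Adult cornea was 2.38-fold over tendon (limma adjusted p = 8.37e-04, and 0.134 with pseudocount 1).

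Among the remaining organic solute carriers, Slc35a1 and Slc34a2 were highest in cornea, and Slc22a12 and Slc29a1 in tendon. Slc35a1, which brings CMP-sialic acid into the Golgi, read 467, 351 and 202 in adult cornea, 412 and 381 in P10 cornea, 63.2 and 48.3 in lens and 70.0 and 78.0 in tendon. Corneal arrays of both ages were above all lens and tendon arrays, 4.74-fold for adult cornea over lens and 3.76-fold over tendon. Slc34a2, the sodium-phosphate cotransporter of lung and gut epithelium, read 375, 335 and 323 in adult cornea, 207 and 204 in P10 cornea, 135 and 112 in lens and 81.8 and 95.1 in tendon. Adult cornea was 2.59-fold over lens (limma adjusted p = 1.46e-04) and 3.45-fold over tendon (adjusted p = 3.40e-05). Slc22a12, the urate carrier of the kidney tubule, read 388, 577 and 431 in adult cornea, 989 and 802 in P10 cornea, 385 and 393 in lens and 2197 and 2215 in tendon. Tendon was 4.68-fold over adult cornea (limma adjusted p = 1.63e-05) and 5.49-fold over lens (adjusted p = 1.01e-05), with P10 cornea between. Slc29a1, a nucleoside carrier, read 169.5, 140.5 and 191 in adult cornea, 200.3 and 202 in P10 cornea, 146 and 178 in lens and 339 and 326 in tendon. Tendon was 1.91-fold over adult cornea (limma adjusted p = 0.00355). Slc35b1, a nucleotide carrier of the endoplasmic reticulum, was called in no comparison and read 217 to 410 over the 9 arrays.

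Corneas of the 2 ages differed in few carriers. Of the 103 genes, 1 was higher and 2 were lower in adult than in P10 cornea, 2.91% of members beside 4.57% of all tested probe sets (0.699% higher and 3.88% lower), and 11 members had an unadjusted p under 0.05. Under quantile normalization the calls were 2 higher and 2 lower, and under median centring or trimmed mean scaling 2 higher and 1 lower. The gene counted as higher was Slc5a1, with the values given above (2.70-fold, log2 1.43 ± 0.30). It entered only through adult cornea arrays, so its count is a description and no test is given. Slc1a4, a carrier of alanine, serine and cysteine, read 104, 67.0 and 79.1 in adult cornea, 253 and 221 in P10 cornea, 216 and 129 in lens and 146 and 165 in tendon, and its adult and P10 arrays did not overlap (2.57-fold lower in adult, log2 -1.36 ± 0.24, limma adjusted p = 0.0125). Slc22a12, with the values given above, had an adult minus P10 log2 difference of -0.93 ± 0.20 (limma adjusted p = 0.0295). Each of these calls rested on single arrays. For Slc5a1 the log2 difference was 1.33 without P10 cornea 1, 1.53 without P10 cornea 2 and 1.12 without adult cornea 1. It was not counted in those fits, with pseudocount 1 or with only the groups compared. For Slc1a4 the adjusted p was 0.142 and 0.0881 without P10 cornea 1 and 2. For Slc22a12 it was 0.322 without P10 cornea 1, 0.120 without P10 cornea 2, 0.0951 without adult cornea 1, 0.0503 without adult cornea 3, and 0.0696 and 0.0687 without tendon 1 and 2. The Slc22a12 call also ended with median centring (0.0912), trimmed mean scaling (0.0612) and only the groups compared (0.110). Stromal and fibroblast markers, all 7 above the median at both ages, summed to 7169 to 8571 on the adult and 20070 to 20160 on the P10 arrays, and melanocyte markers to 503 to 653 and 1246 to 3509, and the part of these cells in the differences was not tested.

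**Figure D4:**
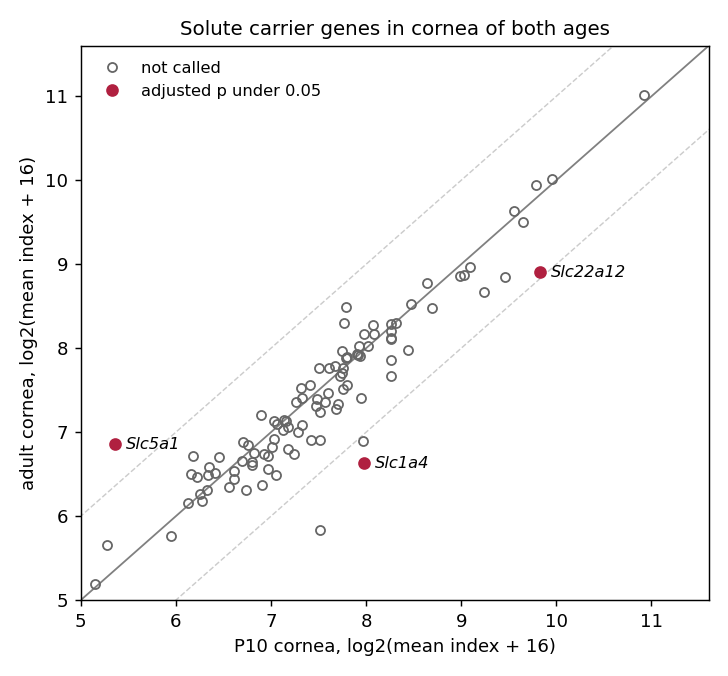
Mean index of each of the 103 solute carrier genes in P10 cornea (x axis, 2 arrays) and adult cornea (y axis, 3 arrays), both as log2(mean index + 16); the solid line marks equality, dashed lines a 2-fold difference and filled points an adjusted p under 0.05. Slc5a1 lies above the lines, and Slc1a4 and Slc22a12 below the line of equality. The fill of Slc5a1 is a description, as that gene entered only through adult cornea arrays.

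Genes that work with the carriers were read from a list of 70, of which 39 had a tested probe set. In adult cornea 15 were higher and 11 lower than in lens, where 51.2% of all tested probe sets were called, and 8 higher and 13 lower than in tendon, where 35% were. In P10 cornea 13 were higher and 12 lower than in lens (51% of all), and 9 higher and 10 lower than in tendon (26.7%). In lens 10 were higher and 20 lower than in tendon (49%), and between the corneal ages 1 gene was called (4.57%). Of the partner genes, 6 reached the median in 1 group only, among them Atp1b2 and Stk39 in lens and Ckmt2 in tendon, and Ckmt1 did so in cornea only; these are given with no test. The sodium pump subunit Atp1b2 read 13, 20.8 and 17.5 in adult cornea, 16.8 and -80.6 in P10 cornea, 934 and 702 in lens and 2.37 and 5.52 in tendon. Lens was 25.1-fold over adult cornea, while the pump regulator Fxyd3 read 1803, 1645 and 1749 in adult cornea, 1709 and 1748 in P10 cornea, 69.0 and 45.2 in lens and 148 and 102 in tendon. Stk39, the kinase that switches on Slc12a2, read 15.6, 5.50 and 18.9 in adult cornea, 15.1 and 23.6 in P10 cornea, 178 and 129 in lens and 9.89 and 11 in tendon. Lens was 5.84-fold over adult cornea.

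The enzymes that use what the carriers bring in had tissue patterns of their own. Hk2, the hexokinase of muscle and fat, read 60.4, 67.7 and 65.7 in adult cornea, 47.6 and 46.4 in P10 cornea, 162 and 114 in lens and 332 and 329.6 in tendon. It was highest in tendon (4.31-fold over adult cornea), with no test given, as it reached the median only on lens and tendon arrays. Hk1, the hexokinase of most tissues, had the other order, at 1563, 1852 and 1936 in adult cornea, 1869 and 1675 in P10 cornea, 1629 and 1221 in lens and 847 and 901 in tendon (2.02-fold higher in adult cornea than in tendon, limma adjusted p = 0.00147). Fabp5, a fatty acid binding protein, read 571, 949.5 and 724 in adult cornea, 1136 and 1224 in P10 cornea, 6267 and 6961 in lens and 358 and 224 in tendon. Lens was 8.85-fold over adult cornea (limma adjusted p = 4.71e-06). Fabp4, that of fat cells, read 17.0, 10.4 and 21.7 in adult cornea, 31.0 and 38.4 in P10 cornea, 70.0 and 74.2 in lens and 1738 and 2163 in tendon. The zinc- and copper-binding metallothionein Mt1 read 529, 863 and 370.1 in adult cornea, 573 and 407 in P10 cornea, 72.3 and 44.6 in lens and 319 and 299 in tendon. Lens was 7.78-fold below adult cornea (limma adjusted p = 4.65e-05). Of the mitochondrial creatine kinases, Ckmt1, the ubiquitous form, read 405, 462 and 293 in adult cornea, 333 and 258 in P10 cornea, 34.5 and 44.5 in lens and 29.1 and 15.7 in tendon, and Ckmt2, the muscle form, read 3.75, 3.98 and 3.95 in adult cornea, 2.82 and 2.40 in P10 cornea, 13.1 and 5.4 in lens and 1049 and 1029 in tendon. Ckmt1 was 10.5-fold higher in adult cornea than in tendon, and Ckmt2 was 53.0-fold higher in tendon.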

How the data were processed

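The deposited table gives, for each of 12488 probe sets (66 of them controls) on 9 arrays, a linear expression index of hybridisation intensity in arbitrary units. The authors' design text gives 2 programs, Microarray Suite 5.0 (expression values, detection calls) and dChip (normalisation to an invariant set, indices from a model), and the submitters' processing notes list MAS5, with no version. The sources used here do not give the genome build or say from which of these programs the deposited intensity values came. Each array holds values below 0.

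Values at or below 0 were set to 0, 16 was added and log2 taken. Control probe sets were left out, and 8154 probe sets at or above their array's median (over non-control probe sets) on at least 2 of 9 arrays were fitted together with limma 3.58.1 in R 4.3.3 (group means, eBayes with trend, 5 residual and 4.93 prior degrees of freedom), two-sided, with Benjamini-Hochberg adjustment. The script was tested on simulated data. Precision is limited by the number of arrays. Symbols come from the platform annotation (10833 probe sets with 1 symbol, 396 with several, 1193 with none; 1 Slc probe set with several was left out), and all 103 Entrez identifiers matched RefSeq's gene table. Of the 103 probe sets, 6 have a suffix other than _at, which marks probes shared between sequences or fewer probes.

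The members, role groups, marker lists and partner genes were chosen with earlier results of these data known. Named genes were those called with at least 2-fold and no overlap (up to 8 each way per comparison), up to 4 of the highest mean per role group, and 23 set carriers where kept. Alternatives were other pseudocounts (1 and 64), filters, scalings, fits on only the groups compared, a replicate block, the mean over probe sets, no probe set with a value below -100, the methods' t-test, and each array left out.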

Additional observations from a re-analysis of the deposited data

How the results depend on the processing

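Of 3118 alternative values of the 150 named calls, 2859 kept direction and side of the threshold, 257 kept direction but passed the threshold no longer, and 2 reversed. Both reversals were Slc6a8 with the mean over its probe sets, which disagree: P10 cornea minus lens became -0.0418 (limma adjusted p = 0.883) and lens minus tendon 1.20 (limma adjusted p = 0.00107). Many named genes were picked for large calls in these same data, and some entered only through the group where they are high. The counts of kept and lost values therefore describe the named calls and are no measure of how reliable calls are. For adult against P10 cornea the 3 calls became 5 with pseudocount 64, 1 with only the groups compared (9 members at unadjusted p under 0.05) and 0 with the methods' t-test after Benjamini-Hochberg (2 before), and 0 to 4 leaving out 1 array, the 0 without P10 cornea 1 or 2, where 10 and 9 members had an unadjusted p under 0.05 in limma. The methods' t-test called 28 members before and 17 after Benjamini-Hochberg for adult cornea against lens (limma 47), 18 and 11 for adult cornea against tendon (40), 25 and 9 for P10 cornea against lens (50), 18 and 6 for P10 cornea against tendon (27) and 32 and 15 for lens against tendon (50). Leaving out 1 array gave 37 to 52, 21 to 40, 32 to 57, 12 to 30 and 37 to 57 calls in the same order. With only the groups compared, P10 cornea against tendon had 45 calls. Median centring moved the median difference of all tested probe sets from -0.13 to 0.04 for adult minus P10 cornea, from 0.25 to 0.04 for P10 cornea minus lens and from 0.13 to 5.00e-04 for P10 cornea minus tendon, and the other causes of change were not tested. Replicate numbers did not pair the arrays (correlations of deviations -0.36 to 0.20); with a replicate block the counts were 3, 49, 40, 52, 27 and 51 (without it 3, 47, 40, 50, 27 and 50, for adult cornea against P10 cornea, lens and tendon, P10 cornea against lens and tendon, and lens against tendon).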

Other observations

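The following members lie outside the rule for named genes and were picked after their values were seen. Slc51a, a subunit of the carrier of bile acids and steroids, read 54.2, 41.4 and 93.9 in adult cornea, 48.0 and 80.9 in P10 cornea, 240.5 and 189.7 in lens and 34.6 and 33.7 in tendon, with lens 3.01-fold over adult cornea. Only the lens arrays and adult cornea 3 reached the median, so Slc51a was kept through its lens values and no test is given. Slc25a45, a mitochondrial carrier, read 271, 190.1 and 216 in adult cornea, 225 and 224 in P10 cornea, 72.3 and 52.4 in lens and 186 and 221 in tendon, and lens was 3.08-fold below adult cornea (limma adjusted p = 1.32e-04). Slc22a18, an organic cation carrier, read 118, 99.2 and 89.7 in adult cornea, 86.2 and 90.0 in P10 cornea, 85.3 and 87.8 in lens and 36.7 and 38.1 in tendon, with tendon 2.21-fold below adult cornea (limma adjusted p = 6.71e-04). Slc44a4, a choline carrier, read 207, 192 and 207 in adult cornea, 158 and 174 in P10 cornea, 127 and 136 in lens and 104 and 88.1 in tendon, and its lens arrays, unlike those of Slc44a1 and Slc44a2, stayed above 120; adult cornea was 1.95-fold over tendon (limma adjusted p = 0.00158). A further probe set of the ascorbate carrier family member Slc23a3 read 248 and 237 in tendon and 36.2 to 98.3 elsewhere, while the probe set used here read 116 to 194 on all arrays and was called in no comparison.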
